A study of Mus musculus and Homo sapiens with 12 samples.

Results

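Claudins, occludin and TJP1 (ZO-1) form and anchor the tight junction, the seal between epithelial cells, and 9 of their genes (*CLDN1*, *CLDN3*, *CLDN4*, *CLDN7*, *CLDN8*, *CLDN2*, *CLDN15*, *OCLN* and *TJP1*) were described here by the histone butyrylation (Kbu) and acetylation (Kac) regions that CUT&Tag placed on them. The genes were chosen by name with earlier results of these data known, and *Cldn3* because the study names it for mouse H4K12bu. They are 9 of 20033 protein-coding genes of the GENCODE 44 annotation (hg38) for CCD841 cells and 9 of 21887 protein-coding genes of the RefSeq annotation (GRCm38.p6, the assembly of mm10) for mouse. CUT&Tag directs a transposase to an antibody-bound histone mark, so that reads pile up where the mark lies. The study asked where butyrate, a short-chain fatty acid made from dietary fiber by gut bacteria, is written onto histones H3 (lysine 18) and H4 (lysine 12). CCD841, an established epithelial line from normal human colon, had 2 libraries each for H3K18bu and H4K12bu, all after 1 mM sodium butyrate for 12 to 16 h, with no untreated libraries among those analysed. Large intestine of male CETP-ApoB-100 transgenic mice had 2 libraries each for H3K18bu and H4K12bu, labelled as a diet high in fat and sucrose with 5% arabinoxylan, a dietary fiber, and 2 each for H3K18ac and H4K12ac, labelled as that diet without the fiber. By these labels the acyl group and the diet changed together, so their parts in any difference between Kbu and Kac cannot be told apart. The methods of the study describe a low fat control diet and a diet high in fat and sucrose to which arabinoxylan was later added. They do not say which mice gave the Kac libraries. The results of the study describe CUT&Tag on intestine of mice fed 5% arabinoxylan and name no other diet for Kac, unlike the labels. The diet of the Kac libraries is thus uncertain. All mice are named as carrying the transgene, while the methods also speak of an ApoE-deficient transgenic mouse, so the genotype is not settled. The sources used here do not give the promoter of the transgene or the age of the mice. Nor do they say whether the replicates came from separate animals or cultures.

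Claudins span the membrane and meet their partners on the neighboring cell, where they set which ions and molecules pass between the cells. *CLDN1*, *CLDN3*, *CLDN4*, *CLDN7* and *CLDN8* encode claudins that tighten the junction, while *CLDN2* and *CLDN15* encode claudins that form pores for small cations and water. *OCLN* encodes occludin, a membrane protein with a MARVEL domain, and *TJP1* encodes the scaffold that ties claudins and occludin to actin. Acylation of H3K18 and H4K12 is found mostly at active promoters and enhancers.

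A region was a listed peak or a run of overlapping peaks of 1 library, and a shared region was a stretch that held a region of each of the 2 replicates of a mark. Each gene was taken with 5 kb on each side. The pileup is the number of extended read ends stacked at a peak, and it was solved from the listed fold and −log10 p. The listed fold is the pileup plus 1 over the local background plus 1, so at low depth it lies well below the plain ratio. The 4 CCD841 and 4 Kac lists ended near a limit of 300000 peaks, while the Kbu lists of the mouse held 50675 to 96432 peaks and ended at the p threshold. The lowest local background differed in the same way. It was 0.788 to 1.55 read ends in CCD841, 0.0608 to 0.147 in the Kac and 0.0146 in each mouse Kbu library. The number of regions per gene was therefore not compared between cells and mouse. The value of 0.0146 was the same in all 4 mouse Kbu libraries, whose lists differed in length, so it does not measure depth among them.

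The sequences printed are those of the start sites and regions on which the results below turn, 5′ to 3′, with capitals for matches to any of 5 motifs on either strand. The motifs were the GC box GGGCGG, the AP-1 motif TGANTCA, the E-box CAGGTG, the TATA motif TATAAA and the CDX motif TTTATG. The first pair holds the 250 bases before the RefSeq start of mouse *Cldn3* (chr5:134985964-134986213, plus strand), where H4K12bu was shared, and of its neighbor *Cldn4* (chr5:134946935-134947184, minus strand), where it was not (GRCm38.p6).
Cldn3: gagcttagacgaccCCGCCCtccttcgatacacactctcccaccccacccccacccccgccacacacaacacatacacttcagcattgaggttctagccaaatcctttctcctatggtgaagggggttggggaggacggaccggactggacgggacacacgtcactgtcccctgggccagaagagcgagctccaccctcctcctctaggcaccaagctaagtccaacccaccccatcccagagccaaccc
Cldn4: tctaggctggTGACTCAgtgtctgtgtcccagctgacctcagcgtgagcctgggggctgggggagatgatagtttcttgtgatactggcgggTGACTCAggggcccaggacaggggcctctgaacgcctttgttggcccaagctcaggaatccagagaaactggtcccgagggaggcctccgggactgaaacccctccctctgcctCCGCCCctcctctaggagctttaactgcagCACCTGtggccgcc
The second set holds 250 bases at the summit of the strongest H3K18bu region of *CLDN4* in CCD841 cells (chr7:73822553-73822802, plus strand, in an intron), and the 250 bases before the outermost GENCODE start of *CLDN1* (chr3:190322447-190322696, minus strand) and *CLDN15* (chr7:101238821-101239070, minus strand), each overlapped in part by a shared region (hg38).
CLDN4 intron: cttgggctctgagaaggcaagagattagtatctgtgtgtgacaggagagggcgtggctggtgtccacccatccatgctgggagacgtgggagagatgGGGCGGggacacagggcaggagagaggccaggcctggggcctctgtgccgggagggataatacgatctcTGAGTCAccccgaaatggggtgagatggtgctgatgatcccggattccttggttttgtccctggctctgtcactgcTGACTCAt
CLDN1: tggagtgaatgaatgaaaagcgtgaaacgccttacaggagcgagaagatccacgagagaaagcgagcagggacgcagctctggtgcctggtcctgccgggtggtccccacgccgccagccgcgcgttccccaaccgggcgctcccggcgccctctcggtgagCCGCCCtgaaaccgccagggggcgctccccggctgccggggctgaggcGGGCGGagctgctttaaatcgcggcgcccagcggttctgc
CLDN15: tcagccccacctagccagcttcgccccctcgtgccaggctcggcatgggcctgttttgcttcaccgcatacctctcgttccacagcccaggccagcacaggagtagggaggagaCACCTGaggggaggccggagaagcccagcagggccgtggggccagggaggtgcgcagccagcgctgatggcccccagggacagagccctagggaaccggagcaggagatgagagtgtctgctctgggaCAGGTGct
The *Cldn3* promoter held 1 GC box and none of the other motifs. The *Cldn4* promoter held 2 AP-1 motifs, 1 GC box and 1 E-box. Of 32851 mouse promoters of the same length, 32.7% held a GC box, 6.75% an AP-1 motif and 17.2% an E-box. The *CLDN4* intron held 2 AP-1 motifs and 1 GC box, against 13.4% and 9.99% of 108536 shared H3K18bu regions of CCD841 cells with at least 1 of each in 250 bases at the summit. The *CLDN1* promoter held 2 GC boxes and the *CLDN15* promoter 2 E-boxes, which 49.0% and 18.4% of 20033 human promoters held at least once. A match shows the letters and not that a factor was bound.

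In CCD841 cells H3K18bu was shared by the replicates at 5 of the 9 genes (*CLDN1*, *CLDN4*, *CLDN2*, *OCLN* and *TJP1*), against 14016 of 20033 protein-coding genes (70%). H4K12bu was shared at 6 of the 9, the same 5 and *CLDN15*, against 71.2%. Neither count was above that background. In mouse intestine H3K18bu was shared at 6 of the 9 genes (*Cldn4*, *Cldn7*, *Cldn8*, *Cldn15*, *Ocln* and *Tjp1*), against 17.7% of all protein-coding genes, and H4K12bu at 6 of the 9 (*Cldn3*, *Cldn4*, *Cldn7*, *Cldn8*, *Ocln* and *Tjp1*), against 29.7%. H3K18ac was shared at 8 of the 9, all but *Cldn1*, against 52.2%, and H4K12ac at 5 of the 9 (*Cldn3*, *Cldn8*, *Cldn2*, *Ocln* and *Tjp1*), against 55.1%. The mouse Kbu counts rested on low pileups, and without *Cldn3*, which was chosen for this mark, H4K12bu was shared at 5 of 8 genes. Of the 154 peaks that the mouse Kbu libraries listed at the 9 genes, 130 (84.4%) had a pileup of 1, against 90.1% of all peaks in these libraries, and 1 (0.649%) passed a q threshold of 0.05, against 2.00%. With 2 libraries per mark, no test was made of these counts.

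**Figure D1:**
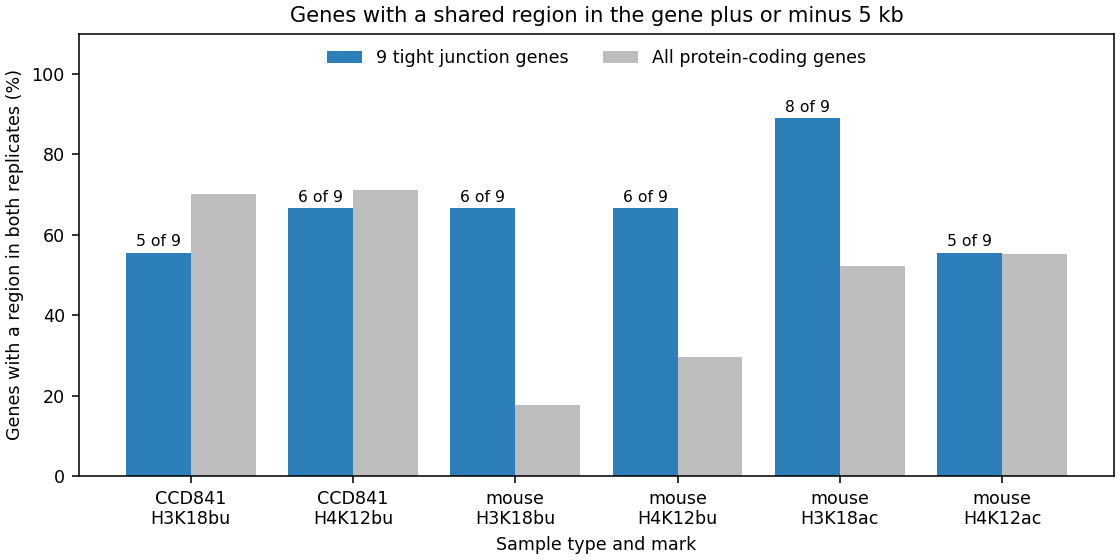
Percent of genes with a region in both replicates in the gene plus or minus 5 kb (vertical axis) by sample type and mark (horizontal axis), for the 9 tight junction genes (blue, with their number) and all protein-coding genes (grey). The blue bars stand above the grey ones for H3K18bu, H4K12bu and H3K18ac in mouse, stand below them in CCD841 cells, and about level for mouse H4K12ac (5 of 9 against 55.1%).

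Long windows hold more regions, so genes were also set beside others of like window size. The 4 mouse genes with windows under 15 kb (*Cldn3*, *Cldn4*, *Cldn7* and *Cldn8*) all had a shared H4K12bu region, against 12.8% of the 5034 protein-coding genes of that size, and 3 of the 4 had a shared H3K18bu region, against 5.70%. Without *Cldn3* the H4K12bu count was 3 of 3. These counts rested on the weakest peaks: at a pileup of at least 2 only *Cldn3* of the 4 kept shared H4K12bu (2.72% of genes of that size) and none kept H3K18bu (0.834%). With equal list lengths *Cldn7* and *Cldn8* kept H4K12bu (7.09%) and *Cldn8* kept H3K18bu (4.81%). In the same size class all 4 had shared H3K18ac, against 22.9%, and 2 had shared H4K12ac, against 22.6%. At a pileup of at least 2 these counts stayed at 4 (16.0%) and 2 (20.2%), and with equal list lengths they were 2 (7.89%) and 1 (5.84%). None of *Cldn1*, *Cldn2* and *Cldn15*, with windows of 15 to 30 kb, had shared H4K12bu, against 29.2% of 6814 genes, while 1 of the 3 had shared H3K18bu (13.8%), 2 H3K18ac (47.0%) and 1 H4K12ac (48.9%). In CCD841 cells the 3 genes with windows under 15 kb (*CLDN3*, *CLDN7* and *CLDN8*) had no shared region of either mark, against 38.3% of 2780 genes with shared H3K18bu and 35.5% with shared H4K12bu. Of *CLDN1* and *CLDN15*, with windows of 15 to 30 kb, 1 had shared H3K18bu (58.7%) and both had shared H4K12bu (60.5%). All 3 genes of 30 to 80 kb (*CLDN4*, *CLDN2* and *OCLN*) had both marks (77.5% and 79.8%), as had *TJP1*, of 80 kb and more (89.9% and 91.3%). Per 10 kb of window the 9 genes held 0.884 shared H3K18bu and 0.692 shared H4K12bu regions, most of them in *TJP1*, against 0.478 and 0.515 over all protein-coding genes. Without *TJP1* the other 8 genes held 0.457 and 0.416, below those values. In the mouse the 9 genes held, per 10 kb, 0.190 shared H3K18bu regions against 0.0489 over all protein-coding genes, 0.190 H4K12bu against 0.0750, 0.690 H3K18ac against 0.232 and 0.33 H4K12ac against 0.240. Without *Tjp1* the mouse values were 0.280, 0.336, 0.840 and 0.504 in the same order, and the Kbu values rest on 5 and 6 regions.

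Fewer of the genes had a shared region at a start. Within 1 kb of an annotated start, shared H3K18bu was found at 4 of the 9 genes in CCD841 cells (*CLDN1*, *CLDN2*, *OCLN* and *TJP1*), against 44.0% of all protein-coding genes, and shared H4K12bu at 3 (*CLDN4*, *CLDN2* and *CLDN15*), against 35.4%. The mouse starts came from the RefSeq promoter table, which holds 8 of the 9 genes but not *Cldn8*. For the 4395 mouse protein-coding genes not in it, *Cldn8* among them, both gene ends were taken for the background. At the 8 genes with a start, shared H3K18bu lay at none, against 6.94%, and H4K12bu at 1 (*Cldn3*), against 16.4%. H3K18ac lay at 3 (*Cldn3*, *Cldn4* and *Ocln*), against 23.6%, and H4K12ac at 1 (*Ocln*), against 27.3%. For *Tjp1* the 1 RefSeq promoter start lies well inside the gene, so its 5′ end (chr7:65527850) was not counted as a start. The shared *Tjp1* region nearest that end, of H3K18ac at chr7:65520742-65521036, lies more than 1 kb from it.

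**Figure D2:**
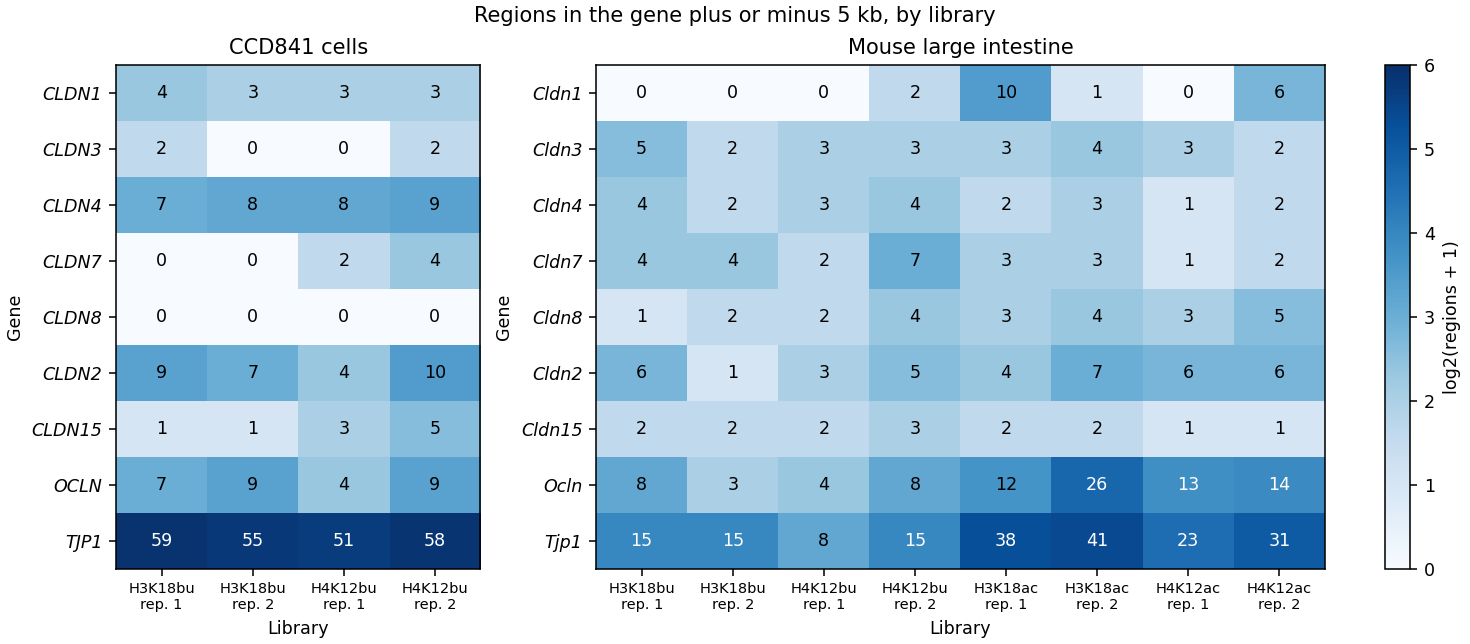
Number of regions in the gene plus or minus 5 kb for each gene (rows) and library (columns) in CCD841 cells (left) and mouse large intestine (right), with darker blue for a higher log2(regions + 1). *TJP1* held 51 to 59 regions in each CCD841 library, while *CLDN8* held none, and the mouse claudin genes held 0 to 10.

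Of the 8 mouse genes here with an annotated start, *Cldn3* had shared butyrylation at that start, and it was H4K12bu. In the wider family *Cldn23* had shared H4K12bu and H3K18bu at its start, and *Cldn14* shared H3K18bu. The H4K12bu region lay at chr5:134985601-134986292 (mm10) and covered the start. The stretch of replicate 1 reached from position -613 to 4, counted from the first base of the gene. Its pileup was 3 over a local background of 0.102, with a listed fold of 3.63 and a −log10 p of 5.38. The stretch of replicate 2 spanned -124 to 78. Its pileup was 3 over a local background of 0.248, with a listed fold of 3.20 and a −log10 p of 3.89. Both replicates thus overlapped the printed promoter, and the −log10 q of 0.851 and 0.422 put neither past a q of 0.05. The study named *Cldn3* from a differential binding analysis of H4K12bu against Kac on read counts. The peak lists hold no counts, so the pileups given here do not measure that contrast.

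The other marks did not fall on this site alike. H3K18bu had a region with a pileup of 1 there in each replicate, at -415 to -251 in the first and at -149 to 30 in the second, and these did not overlap each other. H3K18ac had a pileup of 7 in each, with −log10 q of 2.20 and 1.73, both past a q of 0.05. Its stretch covered -598 to 97 in replicate 1 but only -482 to -405 in replicate 2, which met neither the start nor the H4K12bu stretch of replicate 2. H4K12ac had no region over the H4K12bu stretch in either replicate. Its nearest region in replicate 1, with a pileup of 4, ended at -848, and replicate 2 had none within 1 kb. Of the 8 shared H4K12bu regions at the 9 genes, 2 met no H4K12ac library at all, this one and the one upstream of *Cldn4*, as did 30.1% of all 9920 shared H4K12bu regions.

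**Figure D3:**
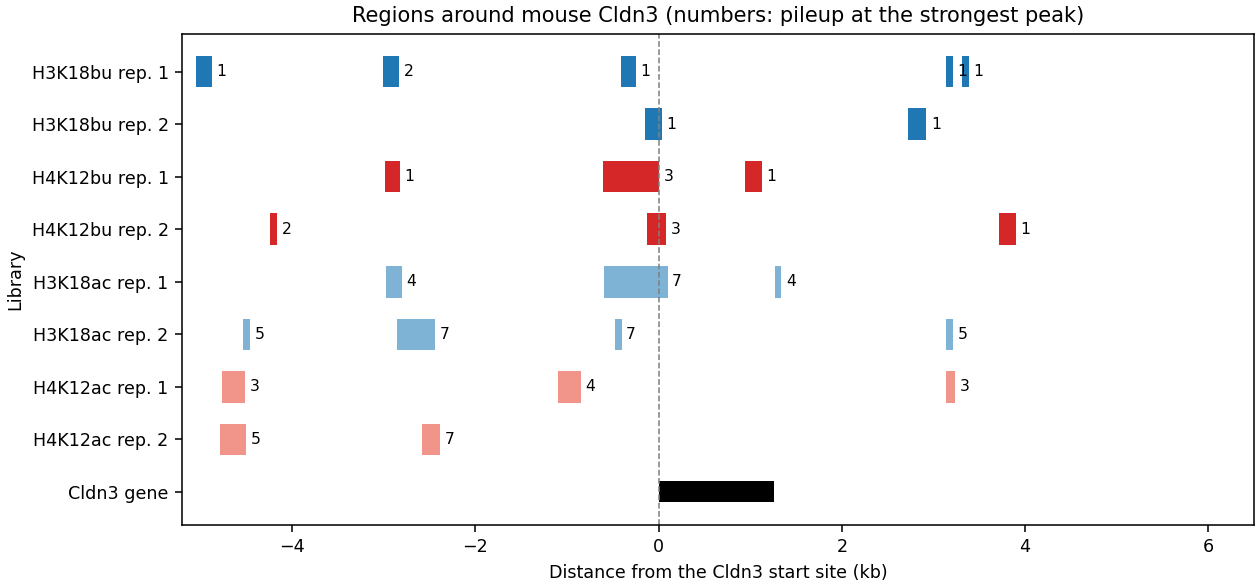
Regions of the 8 mouse libraries (rows) by distance from the *Cldn3* start site in kb (horizontal axis), with the pileup of the strongest peak beside each bar and the gene in black. Both H4K12bu libraries have a region with a pileup of 3 at the start, where H3K18ac replicate 1 has 7, H3K18ac replicate 2 has 7 farther upstream, and neither H4K12ac library has a region.

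The place of *Cldn3* in its family depended on the measure. Of 25 mouse claudin genes, 6 had a shared H4K12bu region (*Cldn3*, *Cldn4*, *Cldn7*, *Cldn8*, *Cldn14* and *Cldn23*), against 29.7% of all protein-coding genes, and 8 had a shared H3K18bu region, against 17.7%. H3K18ac was shared at 13 of the 25 (52.2%) and H4K12ac at 11 (55.1%). Of the 13 claudin genes with windows under 15 kb, 5 had shared H4K12bu, against 12.8% of genes of that size, and 6 had shared H3K18bu, against 5.70%. Without the 4 claudins already described, the other 9 of that size held 1 and 3. Among the 6 with H4K12bu, *Cldn3* ranked 3 by the lower −log10 p of the replicates, after *Cldn14* and *Cldn23*. By pileup it was the highest, with 3 in both replicates against 2 in both for *Cldn14*, the next. Of the 9 genes it alone kept a shared H4K12bu region when peaks with a pileup of 1 were left out, as did 7.24% of all protein-coding genes. When every library was held to the same number of strongest regions, the *Cldn3* region was no longer shared, and 4 of the 9 genes (*Cldn7*, *Cldn8*, *Ocln* and *Tjp1*) kept shared H4K12bu, against 19.0% of all protein-coding genes. The list of replicate 2 was then cut at a −log10 p of 3.98, which a pileup of 1 reaches over the lowest background of 0.0146. *Cldn3*, with a pileup of 3 and a −log10 p of 3.89 in that replicate, fell below such peaks. *Ocln*, with a pileup of 1, lay at the cut itself, where ties were broken with a fixed seed, so its place is not a result. Among all 9920 shared H4K12bu regions of the mouse, 3592 (36.2%) had a higher lower −log10 p than that of *Cldn3*. For its H3K18ac region the number was 3580 of 43739, a longer list, so the ranks were not compared. In CCD841 cells *CLDN3* had no shared region of either mark, with 2 H3K18bu regions in replicate 1 and none in replicate 2, and 2 H4K12bu regions in replicate 2 and none in replicate 1.

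*Cldn4* lies on the same chromosome as *Cldn3*, and its shared Kbu was in the upstream flank, about 4 kb before the start. H3K18bu was shared at chr5:134951008-134951250 and H4K12bu at chr5:134951114-134951389, each with a pileup of 1 in both replicates. Both H3K18ac libraries had a region with a pileup of 3 there (chr5:134951059-134951569). *Mettl27* lies in the same window, but none of these 3 stretches overlapped it.

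In CCD841 cells *CLDN4* held the strongest region of all claudins described here, in an intron and 5.01 kb before the nearest annotated start. The H3K18bu region at chr7:73822255-73823214 (hg38) had a pileup of 41 in replicate 1 and 44 in replicate 2, with folds of 8.37 and 10.0 and −log10 p of 27.5 and 33.1. It was the 1 shared H3K18bu region of the gene, although the replicates listed 7 and 8 regions. H4K12bu was shared over the same stretch (chr7:73822378-73823144), with pileups of 20 and 10 and folds of 4.72 and 4.28. H4K12bu was also shared near the last start of the gene, at chr7:73830993-73831714 with pileups of 26 and 7 and at chr7:73831855-73832451 with pileups of 21 and 7, where replicate 2 did not pass a q of 0.05. H3K18bu met each of these stretches in replicate 1 and not in replicate 2.

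**Figure D4:**
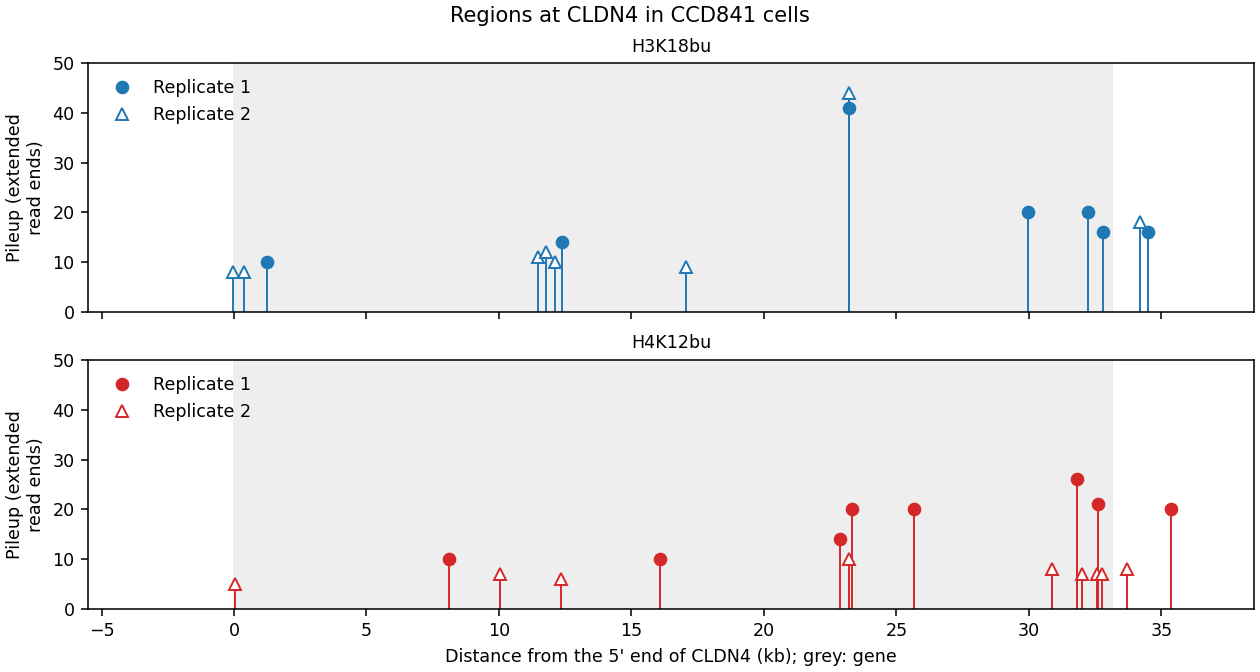
Pileup in extended read ends (vertical axis) of each region at *CLDN4* in CCD841 cells by distance from the 5′ end of the gene in kb (horizontal axis), for H3K18bu (top) and H4K12bu (bottom), with filled circles for replicate 1, open triangles for replicate 2 and the gene in grey. The H3K18bu regions at about 23 kb have pileups of 41 and 44, above the other regions of the gene.

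*CLDN1* had 3 shared H3K18bu regions in CCD841 cells. One covered the start site (chr3:190321999-190322627, pileups of 15 and 16, folds of 4.12 and 5.47), which lies within 1 kb of a start of *CLDN16*. Another lay in an intron (chr3:190314807-190315076, pileups of 11 and 13), and it was met by both H4K12bu libraries, which shared the stretch chr3:190314726-190315098 with pileups of 13 and 8. The last lay in the downstream flank, with pileups of 19 and 10. In mouse, *Cldn1* had no shared region of any of the 4 marks. Its region numbers were 0 in both H3K18bu and in H4K12bu replicate 1, 2 in H4K12bu replicate 2, 10 and 1 in H3K18ac, and 0 and 6 in H4K12ac. The replicates of each Kac mark thus lay far apart, and 9 of the 10 peaks of H3K18ac replicate 1 had a pileup of 1.

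*CLDN7* had no H3K18bu region in CCD841 cells and 2 and 4 H4K12bu regions that did not overlap between the replicates. In mouse, *Cldn7* had shared H3K18bu in the upstream flank (chr11:69962657-69962944, pileup of 1 in both), shared H4K12bu near its 3′ end (chr11:69966714-69966965, pileups of 1 and 2) and 2 shared H3K18ac regions in the flanks. Its H3K18bu region met no library of another mark. *Elp5* lies in the same window.

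*CLDN8* was the 1 gene without a peak in any of the 4 CCD841 libraries, while mouse *Cldn8* had shared regions of all 4 marks at 1 of its gene ends. H3K18ac was shared at chr16:88562453-88563163 with pileups of 6 and 8, and H4K12ac at chr16:88562406-88563200 with pileups of 5 and 5, all past a q of 0.05. H3K18bu was shared there at chr16:88562939-88563200 with a pileup of 1 in both replicates. H4K12bu had 2 shared regions, with pileups of 1 and 2 at chr16:88562323-88562673 and of 1 and 1 at chr16:88562731-88562978. Each of the 8 mouse libraries had a region under the shared Kac stretch. The highest coordinate of the gene is 88563183, and without a strand from the tables used it was not set whether this end is the start.

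Of the pore-forming claudins, *CLDN2* carried both marks in CCD841 cells and *CLDN15* shared H4K12bu but no H3K18bu. *CLDN2* had 4 shared H3K18bu regions, 2 of them at starts, and 1 shared H4K12bu region. All 5 also overlapped *MORC4*, and 1 of them *RIPPLY1* as well. The H3K18bu region at chrX:106919785-106920242 (pileups of 17 and 14) and the H4K12bu region at chrX:106919602-106920134 (pileups of 14 and 6) lay before the same start. *CLDN15* had 3 shared H4K12bu regions before its starts, with pileups of 31 and 11 for the one nearest (chr7:101238878-101239170), which overlaps the printed promoter. The farthest of them (chr7:101239680-101241062, pileups of 26 and 10) lies within 1 kb of a start of *FIS1*. H3K18bu had 1 region in each replicate of *CLDN15*, and they did not overlap. No H3K18bu library had a region over any of the 3 H4K12bu stretches.

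In mouse, *Cldn2* had no shared region of either Kbu mark, with 6 and 1 regions of H3K18bu and 3 and 5 of H4K12bu, and shared 1 H3K18ac region in its flank and 2 H4K12ac regions inside the gene. *Cldn15* shared an H3K18bu region in its upstream flank, where *Fis1* also lies (chr5:136965723-136966159, pileups of 1 and 2), over a shared H3K18ac region at chr5:136965711-136966021 with pileups of 6 and 5. Both H4K12bu libraries had a region over this H3K18bu stretch too, although their regions did not overlap each other, and no H4K12ac library had one.

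Occludin was marked in both systems, at starts by H3K18bu in CCD841 cells and by Kac in mouse. *OCLN* had 3 shared H3K18bu regions, at its outermost start (chr5:69492268-69492831, pileups of 11 and 9), at an inner start (chr5:69544679-69545137, pileups of 16 and 8) and in the downstream flank near a start of *GTF2H2C*. Its 2 shared H4K12bu regions also lay in the downstream flank, each within 1 kb of a start of *GTF2H2C*, though not of the same one. In mouse, *Ocln* had 1 shared region each of H3K18bu (chr13:100518228-100518447, inside the gene, pileup of 1 in both) and H4K12bu (chr13:100492204-100492442, pileup of 1 in both, near *Gtf2h2*). H3K18ac had 6 shared regions and H4K12ac 5, and both covered the start, with H4K12ac pileups of 2 and 9 at chr13:100552611-100553024. The H3K18ac region over the start (chr13:100552465-100552807) was also met by both H3K18bu libraries, in stretches that did not overlap each other, and by 1 H4K12bu library.

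*TJP1* had the largest window of the 9 and the most regions. H3K18bu had 59 and 55 regions in CCD841 cells, of which 35 stretches were shared, 31 of them in introns, 2 at start sites and 2 in flanks. H4K12bu had 51 and 58 regions and 26 shared stretches, 24 of them in introns. The strongest, H3K18bu at chr15:29924629-29925368, had pileups of 41 and 44 and folds of 9.54 and 11.9, and H4K12bu was shared over it with pileups of 31 and 8. The strongest H4K12bu region by the lower −log10 p lay at chr15:29728346-29728654, with pileups of 36 and 13, within 1 kb of the start of another, unnamed gene that it overlapped. Without *TJP1*, 8 of 11 shared H3K18bu regions met at least 1 H4K12bu library, against 64.3% of all shared H3K18bu regions. In turn 6 of 10 shared H4K12bu regions met at least 1 H3K18bu library, against 61.8%.

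In mouse, 1 stretch inside *Tjp1* had a region in all 8 libraries. H3K18bu shared chr7:65468261-65468576 with pileups of 1 and 2, H4K12bu chr7:65468261-65468564 with 1 and 3, H3K18ac chr7:65468237-65468587 with 5 and 9, and H4K12ac chr7:65468094-65468442 with 3 and 3. Shared H3K18bu and H4K12bu also overlapped each other about 1 kb from it, near chr7:65469699-65470009. The 1 mouse Kbu peak at the 9 genes that passed a q of 0.05 lay in *Tjp1* as well, at chr7:65455458-65455771 in H3K18bu replicate 1, with a pileup of 4 and a −log10 q of 2.88.

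**Figure D5:**
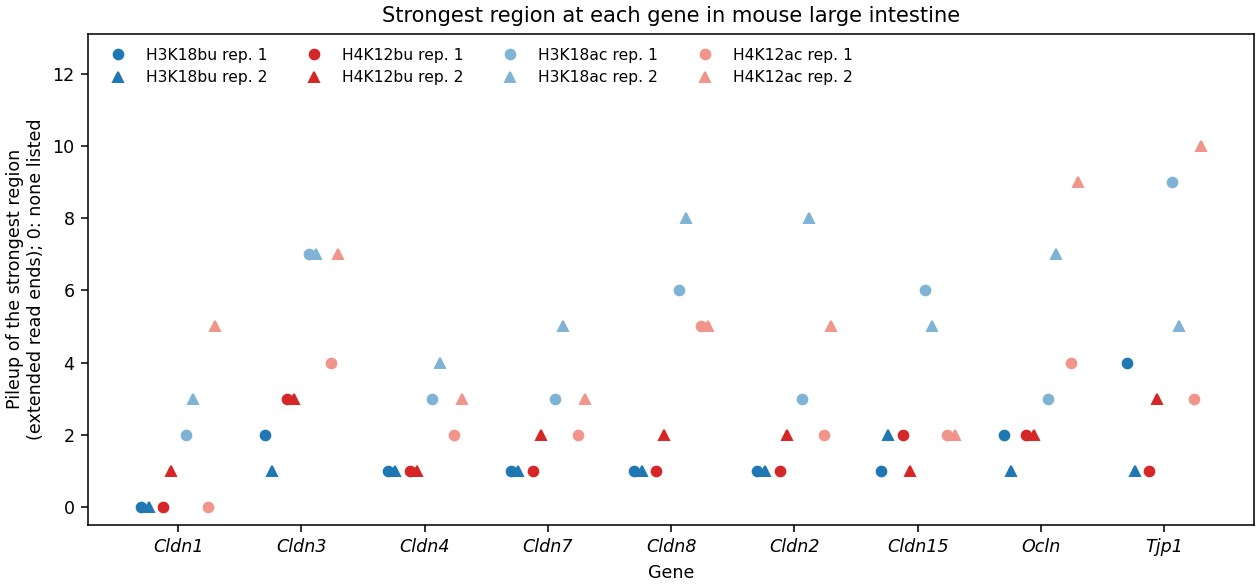
Pileup in extended read ends of the strongest region at each gene (vertical axis, 0 where none was listed) for the 9 mouse genes (horizontal axis) in each library, with circles for replicate 1 and triangles for replicate 2. The Kbu points lie between 0 and 4 and the Kac points between 0 and 10.

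Some regions at the 9 mouse genes were common to several marks, as were many regions elsewhere. All 8 shared H4K12bu regions met at least 1 H3K18bu library (53.5% of all shared H4K12bu regions did), 7 met at least 1 H3K18ac library (72.2%) and 6 at least 1 H4K12ac library (69.9%). Of the 8 shared H3K18bu regions, 6 met at least 1 H3K18ac library (76.1% of all), 6 at least 1 H4K12bu library (60.1%) and 4 at least 1 H4K12ac library (64.4%). Of the 29 shared H3K18ac regions, 20 met at least 1 H3K18bu library (30.0% of all), 11 at least 1 H4K12bu library (31.6%) and 13 at least 1 H4K12ac library (54.1%). Of the 14 shared H4K12ac regions, 11 met at least 1 H3K18ac library (50.6% of all), 7 at least 1 H4K12bu library (27.7%) and 5 at least 1 H3K18bu library (21.4%). Without *Tjp1*, 1 of 5 shared H3K18bu regions met H4K12ac, and 2 of 9 shared H4K12ac regions met H3K18bu. No test was made of these counts, since regions of 1 gene are not independent.

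The numbers of regions in the 4 Kbu and 4 Kac mouse libraries were compared by a two-sided exact permutation test for each protein-coding gene, with the 50645 strongest regions of every library so that all lists had the same length. Regions were ranked by −log10 p, and ties were broken with a fixed seed. At this length 82.0% to 91.4% of the regions of each Kbu library had a pileup of 1, against 0% in each Kac library, so regions of unlike depth were counted side by side. The smallest p that 70 assignments allow is 0.0286. At that p, 197 of 21887 genes (0.900%) did not overlap between Kbu and Kac, and none passed adjustment over all genes, with a lowest adjusted p of 1.0. None of the 9 genes was among these 197. *Cldn4* had 1, 2, 3 and 0 regions in the Kbu libraries and 0, 1, 0 and 0 in the Kac libraries (1.5 ± 1.29 and 0.25 ± 0.5, mean ± SD, n = 4 each, exact permutation p = 0.257, adjusted p = 1.0). *Cldn3* had 3, 2, 3 and 0 in the Kbu and 1, 3, 2 and 1 in the Kac libraries (exact permutation p = 1.0). *Tjp1* had 11, 15, 8 and 6 in the Kbu and 12, 20, 8 and 6 in the Kac libraries (exact permutation p = 0.771). The other 6 genes had exact permutation p of 0.486 to 1.0. The groups of all 9 genes overlapped.

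With all listed regions, *Ocln* had 8, 3, 4 and 8 in the Kbu and 12, 26, 13 and 14 in the Kac libraries, and *Tjp1* had 15, 15, 8 and 15 in the Kbu and 38, 41, 23 and 31 in the Kac libraries. Neither pair of groups overlapped (exact permutation p = 0.0286, adjusted p = 0.117 for both), as was the case for 24.5% of all protein-coding genes, 5352 of 5355 of them with more regions in Kac, where the lists were also at least 3 times as long. The other 7 genes did not reach the smallest p in this setting. With regions of a q below 0.05 alone, *Cldn8* had 0 in each Kbu library and 1 in each Kac library (exact permutation p = 0.0286, adjusted p = 0.301), as 9.48% of all protein-coding genes did not overlap in that setting, all with more in Kac. The other 8 genes did not reach the smallest p there.

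Of 42 other tight junction genes, 36 had shared H3K18bu and 35 shared H4K12bu in CCD841 cells (85.7% and 83.3%, against 70% and 71.2% of all protein-coding genes). In mouse the numbers were 15 for H3K18bu (35.7%, against 17.7%), 16 for H4K12bu (38.1%, against 29.7%), 27 for H3K18ac (64.3%, against 52.2%) and 28 for H4K12ac (66.7%, against 55.1%). At start sites the numbers were 27 (64.3%, against 44.0%) and 17 (40.5%, against 35.4%) for H3K18bu and H4K12bu in CCD841 cells. In mouse they were 4 for H3K18bu (9.52%, against 6.94%), 3 for H4K12bu (7.14%, against 16.4%), 12 for H3K18ac (28.6%, against 23.6%) and 14 for H4K12ac (33.3%, against 27.3%). These shares were not matched for window size. At start sites the strongest in CCD841 cells were *ARHGEF2*, which encodes a protein held at junctions, *PRKCI*, the atypical protein kinase C of the polarity complex, and *MAGI1*, a scaffold, for H3K18bu. *ARHGEF2* had H3K18bu pileups of 32 and 28. For H4K12bu they were *ARHGEF2* (pileups of 61 and 24), *SYMPK*, which encodes symplekin (40 and 14), and *CGN*, which encodes cingulin (18 and 10). In mouse, H3K18bu at start sites was led by *Amotl2* (pileup of 1 in both), *Cldn14* (1 and 3) and *Cldn23* (3 and 1), while the 3 genes with H4K12bu there were *Cldn23* (1 and 2), *Cgnl1* (1 and 2) and *F11r* (1 and 1). H3K18ac was led by *Cgnl1* (5 and 5), *Cldn14* (6 and 5) and *Amotl2* (4 and 4), and H4K12ac by *Cldn22* (3 and 4), *Jam2* (3 and 4) and *Cgnl1* (3 and 5).

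The labels name colon epithelium for cells and mouse, while the mouse tissue was homogenized in bulk, so fewer cells of a type and less signal per cell cannot be told apart. The lists were checked at marker genes, which show chromatin and not RNA. In mouse, where 17.7%, 29.7%, 52.2% and 55.1% of all protein-coding genes had shared H3K18bu, H4K12bu, H3K18ac and H4K12ac, shared H3K18bu lay at 8 of 10 epithelial, 0 of 10 fibroblast, 0 of 5 smooth muscle and 1 of 5 immune marker genes, and shared H4K12bu at 4, 2, 0 and 0 of them. Shared H3K18ac lay at 9 of 10, 3 of 10, 3 of 5 and 4 of 5, and H4K12ac at 6, 5, 3 and 2. In CCD841 cells shared H3K18bu lay at 8 of 10 epithelial and 9 of 10 fibroblast marker genes and H4K12bu at 7 of 10 of both, against 70% and 71.2% of all protein-coding genes. Smooth muscle markers had shared H3K18bu at 4 of 5 and H4K12bu at 5 of 5, and immune markers at 4 of 5 and 2 of 5, so these lists did not set the cells apart as epithelial. The part of cell composition in the results was not tested.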

How the data were processed

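CUT&Tag was analysed in 12 libraries, 4 of CCD841 cells and 8 of mouse large intestine. The authors aligned with Bowtie2, then ran MACS2 through the ENCODE ATAC-seq pipeline on each library, without a control, with p = 0.01 and at most 300000 peaks. The submitters' processing notes name bcl2fastq 2.17.1, cutadapt 1.9.1, Bowtie2 2.3.1 and MACS2 2.1.0, with hg38 and mm10. The deposited lists give each peak's fold (with 1 added to the pileup and to the local background of its own library), −log10 p and −log10 q. They hold no counts, so no count model was fitted. The pileup was solved from the deposited fold and −log10 p and came out whole (within 0.01 on −log10 p) for 99.9997% or more of a library's peaks. The solver and the permutation test were tested on simulated data. A pileup of 1 has a counting error as large as itself.

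Overlapping peaks (at least 1 bp) were merged to regions. Genes came from GENCODE 44 (hg38, all annotated starts) and RefSeq (GRCm38.p6). Counts of genes were set beside all protein-coding genes, and 4 Kbu were compared with 4 Kac libraries by exact permutation tests with Benjamini-Hochberg adjustment over all genes. All 9 genes were named. From the other tight junction genes, the 3 with the highest lower −log10 p at a start were named per mark. The genes, the other tight junction genes and 4 marker lists (epithelium, fibroblast, smooth muscle, immune) were chosen with earlier results of these data known. Motifs were searched in RefSeq promoters and hg38. Replicate numbers are not stated to mark shared animals or batches, so no pairing was used. Python 3.11.15, numpy, pandas and scipy were used. Alternatives were the flank, start sites alone, q below 0.05, a pileup of at least 2, overlap by 0.5 of the shorter region, equal list lengths, fold in place of p, a replicate block and leaving out a replicate.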

Additional observations from a re-analysis of the deposited data

Results flagged for a closer look

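Among the mouse genes, 9 groups of 4 libraries had 1 library apart from the other 3 by more than Dixon's gap test allows. With all listed regions these were *Cldn1* in Kbu (highest 2), *Cldn15* in Kbu (highest 3), *Ocln* in Kac (highest 26) and *Tjp1* in Kbu (lowest 8). With equal list lengths they were *Cldn1* in Kbu (highest 1) and Kac (lowest 0), *Cldn4* in Kac (highest 1), *Cldn8* in Kac (highest 2) and *Cldn15* in Kbu (lowest 0). Chance flags about 1 in 20 groups for values without ties, but 8 of these 9 groups hold 3 equal counts, where any other count passes the limit, so that rate does not apply. In all, 36 groups were looked at. Each group joins the libraries of both residues.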

How the results depend on the processing

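The number of the 9 genes with a shared region moved by over 1.5 times in several settings, given here with the share of all protein-coding genes. At start sites alone it was 3 for CCD841 H4K12bu (35.4%), and 1 (6.94%), 2 (16.4%), 4 (23.6%) and 2 (27.3%) for mouse H3K18bu, H4K12bu, H3K18ac and H4K12ac with both ends of *Cldn8* counted. In the gene body alone it was 3 for mouse H3K18bu (13.9%) and 5 for H3K18ac (42.3%). At a q below 0.05 it was 0 (0.443%), 0 (1.49%), 3 (14.0%) and 2 (14.7%) for the 4 mouse marks in that order. At a pileup of at least 2 it was 1 for each mouse Kbu mark (*Tjp1* for H3K18bu, 3.31%, and *Cldn3* for H4K12bu, 7.24%). With equal list lengths it was 3 for mouse H3K18bu (15.8%) and 2 for H4K12ac (21.2%). The *Ocln* region of H3K18bu replicate 1 was tied at the cut of that list (−log10 p of 3.03) and fell out. By 1 replicate alone, where only H4K12ac moved by that much, it was 6 to 7 and 7 to 8 in CCD841 H3K18bu and H4K12bu (80.3% to 88.9%), 8 in mouse H3K18bu (51.9% and 57.2%), 8 to 9 in H4K12bu (60.9% and 73.3%), 9 in H3K18ac (78.1% and 85.8%) and 8 to 9 in H4K12ac (82.9% and 87.4%), as a gene then needs a region in 1 library only.

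The number of genes whose Kbu and Kac libraries did not overlap, 197 with equal list lengths, was 5355 with all listed regions, 5390 with every listed peak and 2075 at a q below 0.05. Without either replicate it was 2671 to 3236, as values with no test. With the replicate number as a block it was 0, since 36 assignments allow no p under 0.0556, which 325 genes reached. The labels do not say that the numbers pair the libraries, and replicate differences correlated between marks at -0.183 to 0.0437. Kbu minus Kac changed sign at a q below 0.05 for *Cldn3* (-1.0), *Cldn7* (-0.75), *Cldn8* (-1.0, groups not overlapping) and *Cldn15* (-0.25). For *Cldn8* it was -1.5 with all listed regions and with every listed peak and -0.25 with 10 kb on each side, and for *Cldn2* 0.5 with 10 kb and in the gene body alone. The cause was not tested. Of the other values, 39 counts stayed within 1.5 times, and, apart from *Ocln* and *Tjp1* passing the unadjusted threshold with all listed regions and every listed peak, the other differences of single genes kept their direction or fell to 0 and stayed on their side of the threshold, though sizes moved (*Cldn1* from -0.5 to -3.75 with all listed regions, *Tjp1* from -1.5 to -6.5 at a q below 0.05). The strongest region of a gene in a library was the same by fold as by p in 91 of 96 cases. Pileups of 1 and a q rarely passed limit the mouse Kbu results, and the list limit of 300000 peaks limits the Kac and CCD841 lists.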
